A study of Homo sapiens with 6 samples.

Results

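The replication-dependent histone genes were taken as 61 of the 21448 probe sets. Their gene symbols were H1-1 to H1-6 and every numbered H2AC, H2BC, H3C or H4C symbol. Rows were taken by symbol, whatever their values. They comprised 15 H4, 9 H3, 17 H2B, 14 H2A and 6 H1 genes, each with a probe set of its own, and 0 of the 61 rows were identical on all arrays to another row. RefSeq listed 69 protein-coding genes with such symbols, and the other 8 were not analysed here. By the RefSeq gene table, 49 of the measured genes lie on chromosome 6, 11 on chromosome 1 and 1 (H4C16) on chromosome 12.

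The samples were K562 cells, an established human erythroleukaemia line, labelled as bone marrow in tissue and as erythroleukemia in genotype. Cells given a miR-543 vector, labelled as overexpressing that microRNA, were set against cells with a control vector, with 3 arrays in each group. The labels give no dose, time, clone number or promoter of the vector, and do not say whether replicates came from separate cultures, and the p-values reflect variation among arrays that could be technical alone. Values are log2 signals normalized by RMA, on which a difference of 1 is a 2-fold change. The median signal of an array was between 5.99 and 6.01 and its upper quartile between 9.61 and 9.66, and the number of arrays limits the precision.

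Of 10 erythroid markers 7 were measured, and their means over the 6 arrays lay between 6.38 (EPOR) and 15.8 (HBE1), with GATA1 at 15.7. The stromal markers measured lay between 3.49 and 9.01, the lymphoid markers between 3.17 and 10.9 (CD3D) and the epithelial markers between 2.74 and 13.5 (EPCAM). Log2 changes, miR-543 vector minus control vector, were above 0 for 6 of the 7 erythroid markers, with a median of 0.14 and the highest for KLF1 (0.66, adjusted p = 0.106). They were above 0 for all 5 stromal markers measured, with a median of 0.24. Of the 5 lymphoid markers 3 were below 0 (median -0.04), and CD3D had a change of 0.64 (adjusted p = 0.184). Of the 6 epithelial markers 4 were below 0, and EPCAM had a change of -0.24 (adjusted p = 0.659). Of all 23 markers, 0 were called by limma, beside 0.569% of all probe sets. An unadjusted p under 0.05 was found for 3 (KLF1, TAL1 and CD3D), beside 10.6% of all. The part of such markers in the histone values was not tested.

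As background, the core histones H2A, H2B, H3 and H4 form the nucleosome and H1 binds the linker DNA between nucleosomes. The clustered genes are transcribed in S phase, when new DNA has to be packaged, and most of their mRNAs end in a stem-loop bound by SLBP in place of a poly(A) tail. How the cDNA on these arrays was primed is not given in the sources used here, so how fully transcripts without a tail were copied is unknown. Many copies of a core histone are closely related in sequence, so a probe set may read several of them, and single-gene values are uncertain in that respect. Identity between the copies was not computed.

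The agent that distinguished the groups is shown for reference, with its seed, bases 2 to 8, in capitals. The mature sequence is that of RefSeq (GRCh38.p14, chr14:101032033-101032054, plus strand).
hsa-miR-543: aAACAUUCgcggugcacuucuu

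Promoters were available in RefSeq (GRCh38.p14) for 57 of the 61 genes; H2AC12, H3C11, H4C1 and H4C3 were without an entry. A single promoter of each class is printed as an example and need not be typical of it, namely the 200 bases before the start of the gene with the largest change among those with an entry. That of H2BC9 (log2 change -0.22) was added to show the octamer, which the other 5 lack in this stretch. Capitals mark matches to 4 motifs, each searched on both strands, and no matches overlap within these sequences. The first motif was CCAAT, a common element of promoters with its own binding factor NF-Y. The second was the TATA box, searched with the letters TATAAA. The third was the octamer of H2B genes, which POU2F1 binds and which was searched as ATTTGCAT. The fourth was the H1 box, known from promoters of linker histones and searched as AAACACA.
H1-6 promoter (chr6:26108136-26108335, minus strand): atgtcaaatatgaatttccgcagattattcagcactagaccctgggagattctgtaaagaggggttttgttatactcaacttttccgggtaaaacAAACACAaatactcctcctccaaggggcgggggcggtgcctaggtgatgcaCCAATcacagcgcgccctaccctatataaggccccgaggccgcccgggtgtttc
H2AC13 promoter (chr6:27807973-27808172, plus strand): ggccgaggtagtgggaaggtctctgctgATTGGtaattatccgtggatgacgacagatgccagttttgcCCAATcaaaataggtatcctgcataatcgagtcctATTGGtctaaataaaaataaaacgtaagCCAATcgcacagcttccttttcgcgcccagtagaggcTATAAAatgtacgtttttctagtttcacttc
H2BC26 promoter (chr1:228457903-228458102, plus strand): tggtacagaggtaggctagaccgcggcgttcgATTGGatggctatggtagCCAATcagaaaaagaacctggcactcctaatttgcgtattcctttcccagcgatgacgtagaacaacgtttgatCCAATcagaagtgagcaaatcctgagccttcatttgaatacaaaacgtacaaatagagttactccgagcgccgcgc
H2BC9 promoter (chr6:26251414-26251613, plus strand): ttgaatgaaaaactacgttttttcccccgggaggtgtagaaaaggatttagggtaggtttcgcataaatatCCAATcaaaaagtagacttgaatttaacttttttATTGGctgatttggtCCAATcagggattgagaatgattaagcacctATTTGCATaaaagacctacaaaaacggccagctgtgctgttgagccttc
H3C10 promoter (chr6:27809851-27810050, plus strand): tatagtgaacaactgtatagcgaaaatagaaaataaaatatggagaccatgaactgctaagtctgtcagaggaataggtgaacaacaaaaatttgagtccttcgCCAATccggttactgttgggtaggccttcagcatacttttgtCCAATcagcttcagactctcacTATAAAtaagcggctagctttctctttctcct
H4C7 promoter (chr6:26246997-26247196, minus strand): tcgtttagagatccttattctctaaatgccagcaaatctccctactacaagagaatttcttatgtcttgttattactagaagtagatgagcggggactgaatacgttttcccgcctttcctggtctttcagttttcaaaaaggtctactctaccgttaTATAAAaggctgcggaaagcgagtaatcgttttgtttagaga

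The classes differed in the motifs their promoters held. Counted from 250 bases before to 50 after the start, CCAAT was present in all 6 H1, 13 H2A, 17 H2B and 8 H3 promoters with an entry and in 3 of 13 H4 promoters, against 35.7% of all 27305 promoters. The octamer was present in 14 of 17 H2B and 8 of 13 H2A promoters and in 0 of the 6 H1, 8 H3 and 13 H4 promoters, against 1.8% of all promoters. In 8 head-to-head pairs of an H2A and an H2B gene the starts lay 215 to 248 bases apart. Their windows overlap, so a match between the starts counts for both genes, and H2A and H2B counts are not independent. AAACACA was present in 6 of 6 H1 promoters and in 1 of the other 51 with an entry, an H2A promoter, against 5.76% of all. TATAAA was present in 39 of the 57 (68.4%), against 12.0% of all. A match describes these letters in this window and is not evidence of binding.

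The comparison asked whether mRNA of these genes differed between cells with the miR-543 vector and cells with the control vector. None of the 61 was called by limma at an adjusted p under 0.05, beside 122 of all 21448 probe sets (0.569%). At an unadjusted p under 0.05 there was 1 member, H4C7, beside 10.6% of all probe sets. The median log2 change of the members was 0.03, beside 0.01 over all probe sets, and 34 lay above 0 and 27 below, where 52.3% of all probe sets lay above. Single changes ran from -0.39 (H2BC26) to 0.62 (H4C7). In bulk RNA, the share of cells in S phase and the amount of histone mRNA per cell cannot be told apart.

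The precision allows bounds on these changes in array signal. For all 61 genes the 95% interval lay within a log2 change of 1 in either direction, as it did for 96.6% of all probe sets. For 45 (73.8%) it lay within 0.5 in either direction, as for 43.4% of all probe sets. The absolute change was at most 0.2 for 86.9% of the members and 64.4% of all probe sets, and its median was 0.08 and 0.14. The members also varied less between replicates, with a median residual SD of 0.140 against 0.199. Of the 61 members, 40 had a mean at or above the arrays' upper quartiles and 14 lay below the medians. Of these 14, 4 lay below the lower quartiles, while H2BC12, at 17.8, had the highest mean of all probe sets. How far signals so low or so high follow mRNA was not tested, so the bounds hold for signal only. The part of signal level in these smaller changes was not tested.

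**Figure D1:**
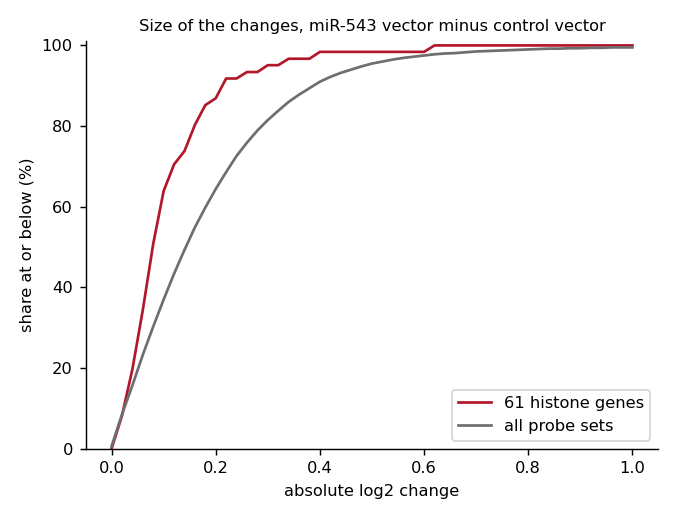
Cumulative share (%) of the 61 histone genes (red) and of all 21448 probe sets (grey) with an absolute log2 change, miR-543 vector minus control vector, at or below the value on the x axis. At 0.2 the curves stand at 86.9% and 64.4%.

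**Figure D2:**
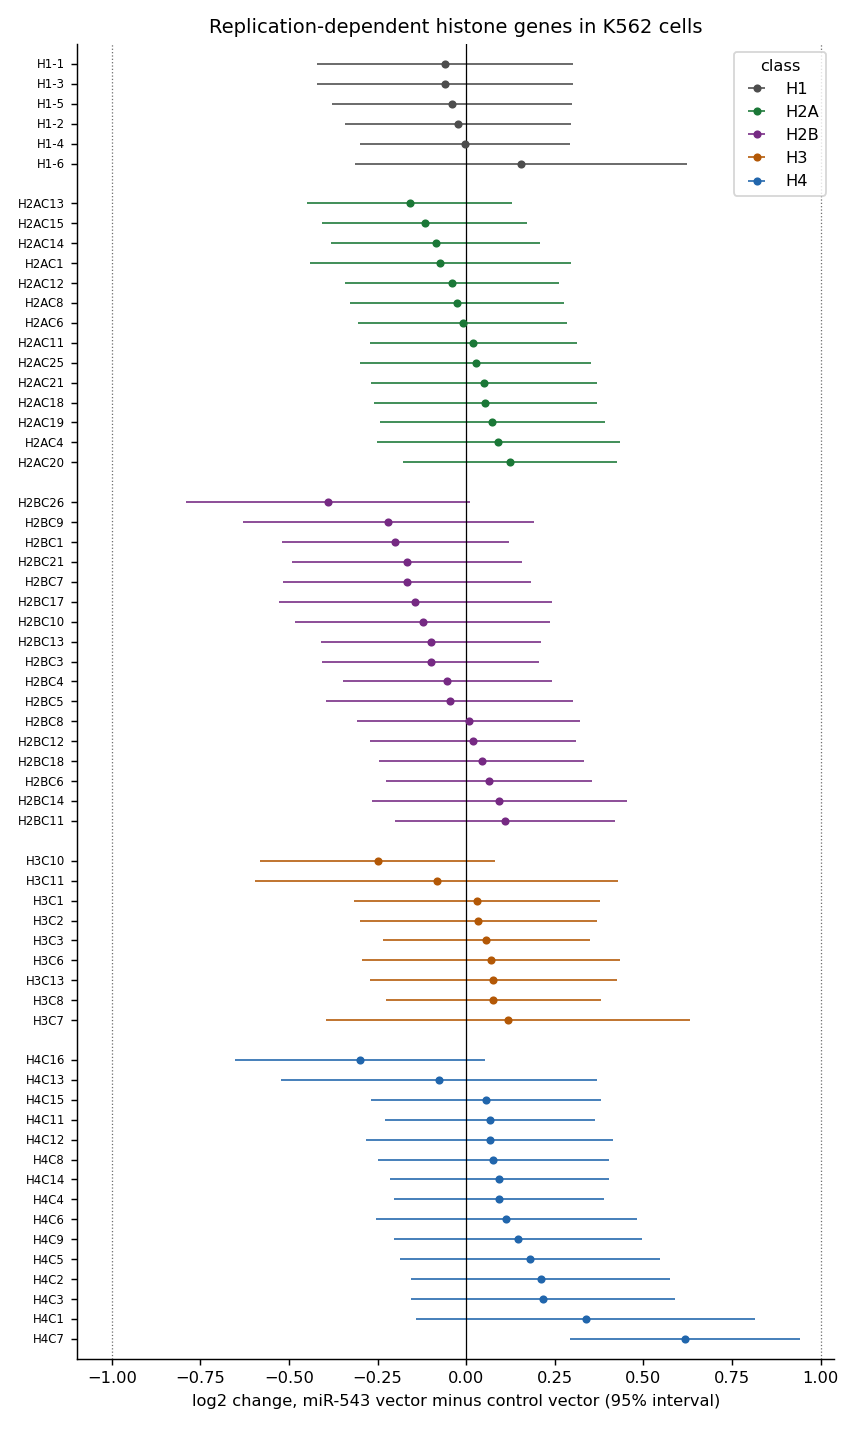
Log2 change, miR-543 vector minus control vector, of each of the 61 histone genes (points) with its 95% interval (bars), grouped by class and ordered within it; dotted lines mark changes of 1 in either direction. Every interval lies between the dotted lines, and that of H4C7 is the only one that does not include 0.

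In 3 of the 61 genes (4.92%) the 3 miR-543 arrays lay all on one side of the 3 control arrays, beside 15.4% of all probe sets. Higher signals on all 3 miR-543 arrays were found for 1 gene, beside 7.89% of all probe sets, and lower ones for 2 genes, beside 7.5%. H4C7 (TC0600011139.hg.1), which encodes the divergent H4-like protein H4G, had signals of 3.81, 3.80 and 3.73 with the miR-543 vector, against 2.97, 3.35 and 3.17 with the control vector. All 3 miR-543 arrays were higher, and all 6 values lay below the arrays' lower quartiles of 3.98 to 4.03. The log2 change was 0.62 (SE 0.15, 95% interval 0.29 to 0.94, adjusted p = 0.140 by limma). Signal over background was not tested here, so the size of this difference is uncertain.

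H2AC13 (TC0600007374.hg.1), an H2A gene of chromosome 6 whose promoter is printed above, had signals of 16.24, 16.21 and 16.16 with the miR-543 vector, against 16.32, 16.34 and 16.43 with the control vector. The groups did not overlap, and the miR-543 arrays averaged 16.2 ± 0.040 against 16.4 ± 0.059 (SD, n = 3 each). The log2 change was -0.16 (SE 0.13, adjusted p = 0.728), so the moderated error was nearly as large as the difference. H2AC15 (TC0600011228.hg.1), another H2A gene of that chromosome, had 11.66, 11.59 and 11.62 with the miR-543 vector, against 11.79, 11.75 and 11.68 with the control vector. Its groups stood apart by only 0.02 at their nearest arrays, and its log2 change was -0.12 (SE 0.13, adjusted p = 0.819).

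**Figure D3:**
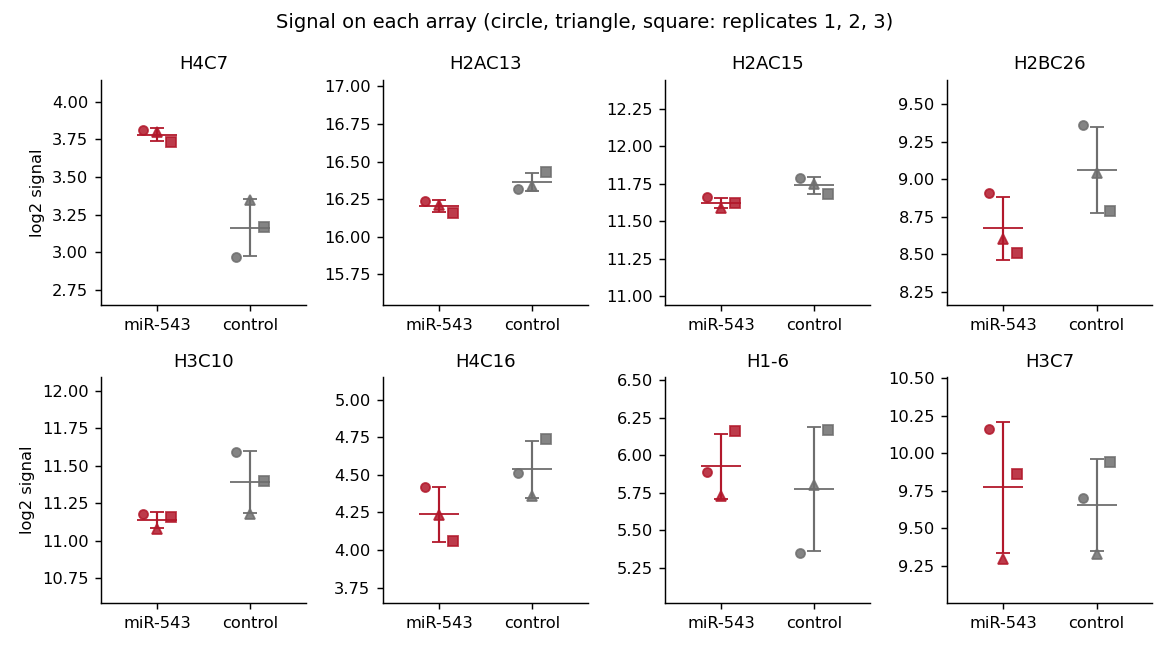
Log2 signal of 8 histone genes on each array, with the miR-543 vector (red) left of the control vector (grey); symbols stand for replicates 1, 2 and 3, horizontal lines for the mean and bars for the SD (n = 3), and each panel spans 1.5 on the log2 scale. The groups stand apart for H4C7, H2AC13 and H2AC15 and overlap or meet for the other 5.

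The linker histones compact chromatin, and 5 of the 6 H1 genes lay below 0 (median -0.03, adjusted p from 0.859 to 0.995). H1-4 had signals of 15.63, 15.61 and 15.73 with the miR-543 vector, against 15.64, 15.75 and 15.59 with the control vector, and a log2 change of -0.003 (95% interval -0.30 to 0.29). The groups overlapped throughout. H1-2 had log2 signals of 14.02, 13.92 and 14.20 with the miR-543 vector, against 14.02, 13.99 and 14.20 with the control vector. The replicate 1 and replicate 3 values were the same in both groups, and the log2 change was -0.02. H1-5 had a log2 change of -0.04, and H1-1 and H1-3 each had one of -0.06. H1-6, the testis form H1t, had 5.89, 5.73 and 6.16 with the miR-543 vector, against 5.35, 5.80 and 6.17 with the control vector. Its log2 change of 0.15 (95% interval -0.31 to 0.62) rested on control replicate 1, without which it was -0.06.

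The 14 H2A genes were split evenly, 7 higher than 0 and 7 lower (median 0.005), and for all 14 the 95% interval lay within 0.5 in either direction. H2AC20, of chromosome 1, was the highest, with 14.68, 14.75 and 14.78 with the miR-543 vector, against 14.49, 14.71 and 14.64 with the control vector. Replicate 1 of the miR-543 group lay within the control range, and the log2 change was 0.12 (SE 0.14, adjusted p = 0.814), or 0.062 without control replicate 1. The neighbouring copies H2AC18 and H2AC19 had log2 changes of 0.05 and 0.07.

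In the H2B class 11 of 17 genes were below 0, beside 47.1% of all probe sets, with a median of -0.10. By limma 0 were called (lowest adjusted p = 0.490), beside 0.569% of all. H2BC26 (TC0100011871.hg.1), on chromosome 1, had 8.91, 8.60 and 8.51 with the miR-543 vector, against 9.36, 9.04 and 8.79 with the control vector. The highest miR-543 array lay above the lowest control array, and the log2 change was -0.39 (SE 0.18, 95% interval -0.79 to 0.01, adjusted p = 0.490), or 76.3% of the control level. It was -0.24 without control replicate 1 and -0.53 without control replicate 3. At the other end H2BC11 had 13.98, 13.90 and 13.86 with the miR-543 vector, against 13.91, 13.64 and 13.86 with the control vector. These groups overlapped, with a log2 change of 0.11 (SE 0.14, adjusted p = 0.848), which was 0.028 without control replicate 2. H2BC1, the testis form of H2B, had a log2 change of -0.20, and its partner H2AC1 had one of -0.07.

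H2A and H2B genes often lie head to head and share the DNA between their starts. Among the genes with a promoter entry, 8 such pairs had starts within 500 bases of each other, and all 8 joined an H2A gene to an H2B gene. The changes had the same sign in 4 pairs and opposite signs in 4. H2AC13 and H2BC13 had log2 changes of -0.16 and -0.10, and H2AC11 and H2BC11 had 0.02 and 0.11. H2AC25 had a log2 change of 0.03 beside the -0.39 of its partner H2BC26, and H2AC20 had 0.12 beside -0.17 for H2BC21. The SE of each change in these 8 pairs was between 0.13 and 0.18, and the differences within pairs were not tested.

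Of the 9 H3 genes 7 lay above 0, with a median of 0.06. By limma 0 were called (lowest adjusted p = 0.608), beside 0.569% of all probe sets. H3C10 (TC0600007375.hg.1) had 11.18, 11.08 and 11.16 with the miR-543 vector, against 11.59, 11.18 and 11.40 with the control vector. The groups met at 11.18, and the log2 change was -0.25 (SE 0.15, 95% interval -0.58 to 0.08, adjusted p = 0.608). Without control replicate 1 it was -0.15. H3C7 had 10.16, 9.30 and 9.86 with the miR-543 vector, against 9.70, 9.33 and 9.94 with the control vector. It varied more between replicates than between groups, with means of 9.77 ± 0.44 and 9.66 ± 0.31 (SD, n = 3 each) and a log2 change of 0.12. That sign turned without control replicate 2 (-0.05) or miR-543 replicate 1 (-0.08).

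In the H4 class 13 of 15 genes were above 0, beside 52.3% of all probe sets, with a median of 0.09. By limma 0 of the H4 genes were called (lowest adjusted p = 0.140, for H4C7), beside 0.569% of all. Among them H4C1 (TC0600007263.hg.1), singled out here after its values were seen, had 8.27, 8.01 and 8.53 with the miR-543 vector, against 7.50, 8.0 and 8.30 with the control vector. The groups overlapped, and the log2 change was 0.34 (SE 0.22, 95% interval -0.14 to 0.82, adjusted p = 0.637). H4C3, chosen in the same way, had 15.66, 15.92 and 16.13 with the miR-543 vector, against 15.53, 15.64 and 15.89 with the control vector, a log2 change of 0.22 (SE 0.17). In both genes replicate 3 was the highest array of each group, and the groups overlapped. H4C16, the member on chromosome 12, had 4.42, 4.23 and 4.06 with the miR-543 vector, against 4.51, 4.36 and 4.74 with the control vector, a log2 change of -0.30 (SE 0.16, adjusted p = 0.555). The miR-543 group overlapped the control group at its highest array, and the change was -0.20 without control replicate 3. H4C16 had a mean of only 4.39, near the arrays' lower quartiles. The copies H4C14 and H4C15 had log2 changes of 0.09 and 0.06.

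Each class was also viewed array by array, as the median over its genes of the deviation from each gene's 6-array mean. For H4 this was 0.03, 0.10 and 0.11 with the miR-543 vector, against -0.18, -0.12 and 0.10 with the control vector. Control replicates 1 and 2 lay below every miR-543 array, and control replicate 3 lay among them. For H2B it was 0.03, -0.06 and -0.01 with the miR-543 vector, against 0.05, -0.07 and 0.09 with the control vector, so the groups overlapped. Over all 61 genes it was 0.02, -0.03 and 0.002 with the miR-543 vector, against -0.02, -0.07 and 0.10 with the control vector. Control replicate 3 was the highest array for the histone genes as a whole, while over all probe sets the 6 medians lay between -0.01 and 0.01. The H4 median minus the H2B median was 0.003, 0.15 and 0.12 with the miR-543 vector, against -0.23, -0.05 and 0.005 with the control vector. The groups overlapped in this difference too, where control replicate 3 stood just above miR-543 replicate 1.

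**Figure D4:**
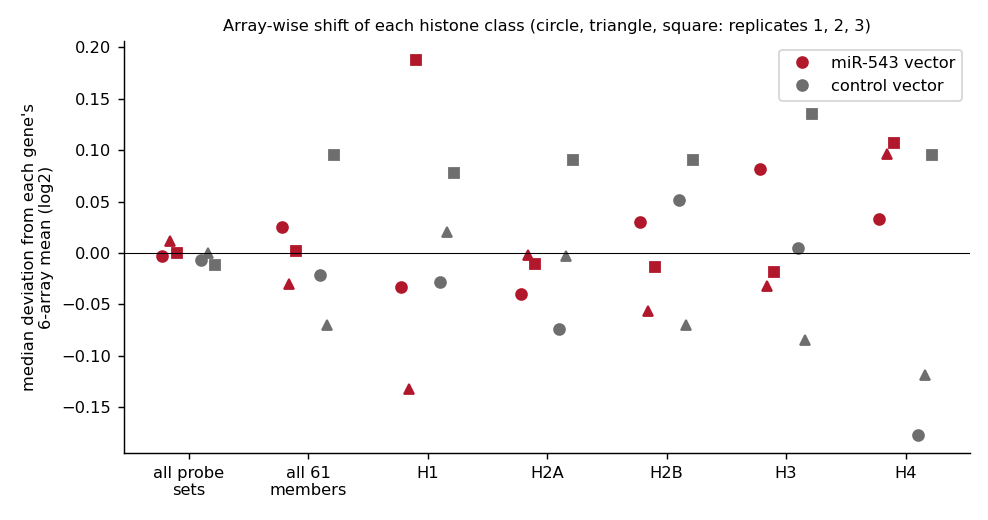
Median deviation (log2) from each gene's 6-array mean, for all probe sets, all 61 histone genes and each class, on each array with the miR-543 vector (red) and the control vector (grey); symbols stand for replicates 1, 2 and 3. Values overlap between groups in every class, and control replicate 3 stands highest over the 61 genes, at 0.10.

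By place in the genome, the 11 genes of chromosome 1 had a median log2 change of 0.05 and the 49 of chromosome 6 one of 0.01. On either, 0 were called, beside 0.569% of all probe sets. By promoter, the 22 genes with the octamer had a median of -0.02, from -0.22 to 0.12, and the 35 without it a median of 0.06, from -0.39 to 0.62. The 47 genes with CCAAT had a median of -0.003 and the 10 without it a median of 0.09. These motifs are unevenly spread over the classes. Within H2B the median was -0.08 for the 14 genes with the octamer and -0.10 for the 3 without it, and within H2A it was 0.005 for 8 and 0.03 for 5. Within H4 it was 0.11 for the 3 genes with CCAAT and 0.09 for the 10 without it.

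A list of genes of histone transcription and mRNA processing was examined next. It also held general cleavage and polyadenylation factors such as FIP1L1. Of the 24 measured genes of that list (26 listed), 0 were called, beside 0.569% of all probe sets. An unadjusted p under 0.05 by limma was found for 1, beside 10.6% of all. The median was -0.11 and 18 were below 0, beside 47.1% of all probe sets. The groups did not overlap for 3 of the 24 (12.5%), namely NCBP1, SRRT and FIP1L1, beside 15.4% of all. NCBP1, a subunit of the nuclear cap-binding complex, had 11.08, 10.71 and 10.39 with the miR-543 vector, against 11.53, 11.13 and 11.24 with the control vector. All miR-543 arrays were lower, and the log2 change was -0.57 (SE 0.19, adjusted p = 0.326). CSTF2T, a paralog of a cleavage stimulation factor subunit, had a log2 change of -0.28, and the uridylyltransferase TUT4 one of -0.42 (adjusted p = 0.609 and 0.649). TUT4 had 7.59, 7.75 and 6.57 with the miR-543 vector, against 7.93, 7.61 and 7.62 with the control vector. Its change rested on miR-543 replicate 3, which stood far below the other arrays.

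Genes of S-phase entry, in which cyclin E with CDK2 phosphorylates the histone gene activator NPAT, had a median of -0.03 over 12 measured members. Of these 0 were called, beside 0.569% of all probe sets. CDC6, which loads the replicative helicase, had 10.82, 11.06 and 10.90 with the miR-543 vector, against 11.40, 11.36 and 11.25 with the control vector. The groups did not overlap, and the log2 change was -0.41 (SE 0.14, adjusted p = 0.326). CDC6 was the only 1 of the 12 without overlap (8.33%), beside 15.4% of all probe sets. It was also the only 1 with an unadjusted p under 0.05 by limma, beside 10.6% of all. DBF4, the regulatory subunit of the CDC7 kinase, had a log2 change of -0.36 (adjusted p = 0.515). E2F1, a transcription factor of S-phase genes, had a log2 change of 0.38 (adjusted p = 0.675). The E2F1 change rested on miR-543 replicate 2, at 6.97, while its other arrays in both groups lay between 5.72 and 6.25. Over 19 measured genes of DNA synthesis the median was 0.01 and 0 were called, beside 0.569% of all probe sets. In that list 5 genes had groups that did not overlap, 2 higher (TYMS and PCNA) and 3 lower (MCM4, MCM7 and RRM1), or 26.3% beside 15.4% of all probe sets. Their log2 changes lay between -0.24 (MCM4) and 0.21 (TYMS), and LIG1, a DNA ligase, had -0.34.

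Of 22 measured histone chaperones, which escort histones to and from DNA, 0 were called, beside 0.569% of all probe sets. An unadjusted p under 0.05 by limma was found for 2, beside 10.6% of all, and the median was -0.03. Only TONSL, 1 of the 22 (4.55%), had groups that did not overlap, beside 15.4% of all probe sets. Its log2 change was 0.25 (adjusted p = 0.612). NASP, a chaperone of H3 and H4 that also binds linker histones, had 13.78, 13.50 and 13.61 with the miR-543 vector, against 14.10, 14.26 and 13.77 with the control vector. The highest miR-543 array lay just above the lowest control array, and the log2 change was -0.41 (SE 0.16, adjusted p = 0.414). CABIN1, of the HIRA complex, had a log2 change of 0.56 and DAXX, a chaperone of H3.3, one of -0.35 (adjusted p = 0.446 and 0.490 by limma). CABIN1 had 8.09, 8.72 and 8.21 with the miR-543 vector, against 7.26, 7.97 and 8.10 with the control vector. Its groups overlapped, and control replicate 1 stood well below the other arrays. A further list held histone genes other than the 61, which are expressed through the cell cycle or in special cells. Of its 15 measured genes 0 were called, beside 0.569% of all probe sets, and the median was 0.03. H2AJ had a log2 change of -0.33, H3-5 one of -0.23 and H1-10 one of 0.30 (adjusted p = 0.541, 0.587 and 0.686). H2AJ had a mean of only 4.27, near the arrays' lower quartiles. H1-10 had 6.57, 6.81 and 6.67 with the miR-543 vector, against 6.54, 5.87 and 6.74 with the control vector. Its change rested on control replicate 2, which stood far below the other arrays. The variants H2AZ1 and H2AZ2 each had higher signals on all miR-543 arrays, with log2 changes of 0.15 and 0.16 (adjusted p = 0.760 and 0.734), and H3-5 had lower signals on all of them. The groups thus did not overlap for 3 of the 15 (20%), beside 15.4% of all probe sets.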

How the data were processed

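Total RNA was copied to cDNA, labelled with biotin and measured on 6 arrays of 1 colour, 3 per group, and the sample titles gave every group. The authors deposited log2 signals per probe set, to 2 decimals, made with Transcriptome Analysis Console 4.0 and RMA per the submitters' processing notes; the RMA variant, annotation release and build are not given in the sources used here. The table held 0 columns of other samples. Gene symbols came from the platform annotation (17709 probe sets with 1 symbol, 0 with several, 3739 unnamed here), and all 61 members matched the RefSeq gene table of GRCh38.p14, which was used for names and chromosomes. Groups were compared over all 21448 probe sets with limma 3.58.1 in R 4.3.3 (lmFit and eBayes, two-sided, no block, filter or weights; prior SD 0.201 on 6.26 degrees of freedom), with Benjamini-Hochberg adjustment over all probe sets. SE is the moderated standard error and intervals are 95%. In simulated arrays of 21448 probe sets with normal noise, changes were added to a small share of the probe sets. Log2 changes of 0.5, 1, 1.5 and 2 were called in 0%, 66%, 98% and 100% of those given each size.

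Members named with values are those whose groups do not overlap, all H1 genes and the extremes of each class; from each gene list, those called and the 3 with the smallest unadjusted p; other genes named were chosen after their values were seen. The members and lists were chosen with earlier results of these data known. Class and list medians are descriptions with no test. Alternatives were the trend and robust settings, the replicate block, other scalings, filters on low values, array weights, a test against a log2 change of 0.5 and leaving out each array.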

Additional observations from a re-analysis of the deposited data

How the results depend on the processing

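None of the 61 genes was called by limma under the 15 alternatives run. Of these, counting identical rows once removed no member, and the test against a log2 change of 0.5 could only lose calls. The lowest adjusted p was 0.089, for H4C7 with array weights. The filter at the 20th percentile of signal removed 4 members, H4C7 among them, and that at the 50th removed 14. Correlations of same-numbered deviations were 0.095, -0.053 and 0.018, and those of different numbers lay between -0.094 and 0.066. So few values cannot decide whether the replicate numbers pair the samples. With the replicate block 71 probe sets were called, 0 of them members. Over all probe sets 252 were called with trend and robust settings, 12 against a log2 change of 0.5, and 34 to 59 with 1 array left out, the lowest without control replicate 1, beside 122; the cause was not tested.

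With 1 array left out the median of all members lay between -0.013 and 0.047, of H1 between -0.070 and 0.031, of H2A between -0.043 and 0.026, of H2B between -0.16 and -0.022, of H3 between -0.047 and 0.093 and of H4 between 0.070 and 0.18. The H3 median turned to -0.047 without control replicate 2, and the H2B median was -0.022 without control replicate 3. The list medians then lay between -0.13 and -0.044 for histone mRNA processing, -0.078 and 0.052 for S-phase entry and -0.058 and -0.0067 for chaperones. They lay between -0.052 and 0.080 for the listed histone genes other than the members and -0.013 and 0.065 for DNA synthesis. The median of chaperones was 0.0068 after a further quantile normalization. Under it the changes of H1-4, H1-2 and H1-5 turned to 0.015, 0.016 and 0.019. Of 190 recomputed changes of 15 named members, 16 turned sign, in 7 genes, each within its error. With 1 array left out the range was -0.19 to 0.023 for H1-1, -0.10 to 0.042 for H1-2, -0.21 to 0.043 for H1-3, -0.040 to 0.042 for H1-4, -0.15 to 0.038 for H1-5, -0.058 to 0.35 for H1-6 and -0.077 to 0.35 for H3C7. It was -0.53 to -0.24 for H2BC26, 0.028 to 0.16 for H2BC11, 0.062 to 0.17 for H2AC20, -0.39 to -0.20 for H4C16 and 0.52 to 0.71 for H4C7.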
